A study of Mus musculus with 18 samples.

Results

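The acrosome and gamete interaction genes are 39 mouse genes for building the acrosome, for its contents, for binding the zona pellucida and for fusing sperm with egg. They were taken by gene symbol, and all 39 were found on a single row in each of 18 RNA-seq libraries, among 49395 symbols read from the P14 tables and 55184 from the P18 tables. By role they were 11 genes of acrosome biogenesis, 14 for acrosomal contents, 6 for zona binding and the sperm surface, and 8 for fusion proteins and their relatives. The acrosome is a secretory vesicle of Golgi origin that forms over the nucleus of the round spermatid and releases its enzymes when sperm meets egg. Spermatocytes transcribe some of its genes well before the vesicle exists, while others are known to wait until after meiosis.

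The study compared testes of male C57BL/6J mice with 1 mutant copy of Zfp541 (Zfp541+/-, Het) or with none intact (Zfp541-/-, KO). Zfp541 encodes a germ-cell zinc-finger protein with ELM2 and SANT domains. Each genotype had 3 libraries of whole testis at P14, 3 of whole testis at P18 and 3 of spermatocytes purified at P18 in a way not given in the sources used here, which makes 6 groups. The Het mice, which also carry a mutant allele, were the only controls, so no group was wild type, and beyond the words biological replicates nothing says whether libraries came from separate mice, so p-values measure the spread between these libraries. Poly(A) RNA was sequenced, and the depths read back from the deposited values were 17.96 to 21.12 M for the P14 libraries, 12.81 to 16.95 M for testis at P18 and 9.256 to 18.31 M for spermatocytes (M, mega reads). Levels are RPKM or FPKM, reads or fragments scaled to gene length and library depth, after rescaling within a fit, and 1 read on a gene of 1 kb was worth 0.04735 to 0.108.

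The mean level of Zfp541 itself at P14 was 8.67 ± 0.933 in Het against 4.03 ± 0.904 in KO (SD, n = 3), in P18 testis 25.0 ± 4.26 against 10.3 ± 1.03, and in spermatocytes 43.6 ± 12.6 against 12.2 ± 1.01. KO libraries lay below every Het library in each set and still held transcript, and which part of the gene was removed is not given in the sources used here. The summed level of 8 Sertoli cell markers was 19.98 to 59.96 in the spermatocyte libraries against 889 to 1242 in P18 testis, and all 8 were above 0 somewhere in each group. The summed level of 6 spermatogonial markers was not lower in the spermatocyte libraries (164 to 325) than in P18 testis (101 to 156), and that of 5 macrophage and myoid markers overlapped (46.6 to 161 against 87.4 to 136), while 5 Leydig cell markers summed to 3.25 to 5.46 against 152 to 214. Markers of spermatids, the cells in which the acrosome forms, summed to only 0.392 to 7.02 over 8 genes in any library. In P18 testis their sum was 4.02 to 7.02 in Het and 1.70 to 3.15 in KO. In spermatocytes it was 5.68 to 6.89 in Het and 2.16 to 3.32 in KO, and at P14 0.392 to 1.63 and 0.986 to 2.70.

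Promoters are shown for 4 members, the 250 bases before the RefSeq transcription start, read 5′ to 3′ along the gene's strand in GRCm38.p6. Spata16, Dpy19l2 and Spesp1 were lower in KO at P18, and Izumo3 had reads in Het but none in KO at that age. Capitals mark CACGTG (an E-box core), CAACGG (a core bound by MYB factors) and GTTGCC (part of an RFX site), each searched on both strands, and in Spesp1 the last match of CAACGG overlaps that of GTTGCC. The Izumo3 window held none of these letters. Nor did those of Agfg1, Atp8b3, Crisp2, Zpbp and Zpbp2, which were also lower in KO at P18 and are not shown. The windows shown for Spata16, Dpy19l2 and Spesp1 thus do not stand for all members lower in KO.
Spata16, chr3:26637381-26637630, plus strand: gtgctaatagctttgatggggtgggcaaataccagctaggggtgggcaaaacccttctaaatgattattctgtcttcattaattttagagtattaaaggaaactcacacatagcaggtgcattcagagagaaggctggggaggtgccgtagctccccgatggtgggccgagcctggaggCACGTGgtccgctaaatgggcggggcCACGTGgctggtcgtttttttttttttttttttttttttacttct
Dpy19l2, chr9:24696294-24696543, minus strand: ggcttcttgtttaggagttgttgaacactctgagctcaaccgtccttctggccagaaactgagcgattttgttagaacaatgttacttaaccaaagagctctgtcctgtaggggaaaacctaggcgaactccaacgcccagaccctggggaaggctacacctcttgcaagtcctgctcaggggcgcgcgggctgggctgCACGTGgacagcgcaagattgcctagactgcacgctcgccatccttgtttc
Spesp1, chr9:62282180-62282429, minus strand: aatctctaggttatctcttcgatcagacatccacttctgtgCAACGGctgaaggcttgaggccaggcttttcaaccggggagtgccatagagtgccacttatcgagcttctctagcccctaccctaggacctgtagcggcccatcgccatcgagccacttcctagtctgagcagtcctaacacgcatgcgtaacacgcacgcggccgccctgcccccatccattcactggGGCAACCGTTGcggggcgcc
Izumo3, chr4:92147222-92147471, minus strand: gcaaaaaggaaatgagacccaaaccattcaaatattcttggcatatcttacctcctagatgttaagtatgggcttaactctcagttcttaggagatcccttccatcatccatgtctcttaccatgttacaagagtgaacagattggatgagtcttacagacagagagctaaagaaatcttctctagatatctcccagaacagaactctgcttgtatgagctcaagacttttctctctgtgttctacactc

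The 39 members fell into groups by their level in Het libraries alone. At a level of at least 1 in all 3 P14 Het libraries, 16 were on at P14, 7 of biogenesis, 4 of the contents, 3 of zona binding and surface and 2 of fusion. Another 4 passed 1 in all Het libraries of a P18 set without meeting that rule at P14: Dpy19l2, Spata16, Spaca9 and Acr. At P18, 17 were under 1 in all 6 Het libraries, and 2, Lyzl6 and Eqtn, met none of these rules.

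**Figure D1:**
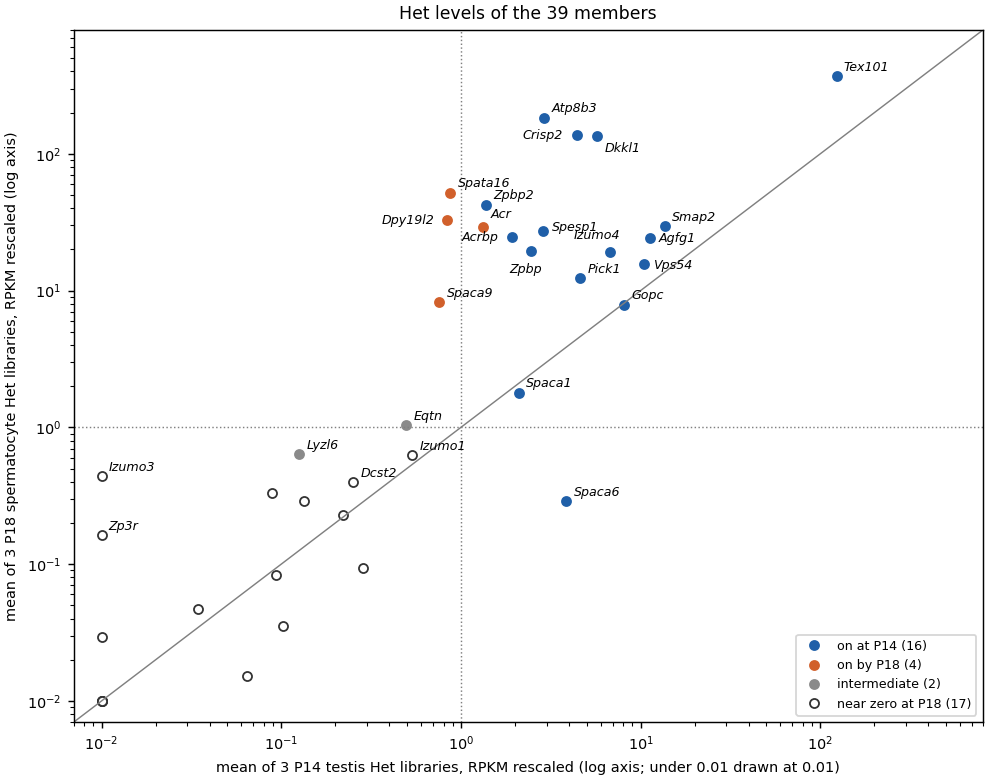
Mean level of each of the 39 members in the 3 P14 testis Het libraries (horizontal) and the 3 P18 spermatocyte Het libraries (vertical), both RPKM after rescaling on log axes, with the diagonal at equal levels and dotted lines at 1. The 17 near-zero genes lie below 1 on both axes, and Atp8b3 and Spata16 lie farthest above the diagonal among the genes on both axes (means under 0.01 are drawn at 0.01); the P14 and P18 tables were scaled separately, and the gene lengths behind them were not shown to be the same for Gopc, Pick1, Atp8b3, Acr, Crisp2, Izumo4, Spaca6, Tmem95 and Tex101.

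At P18, most of the members expressed in Het were lower in KO. In P18 testis 13 of the 20 members tested were lower in KO and 0 were higher, where 17% of all 18790 genes tested were lower and 6.52% higher (limma on log2 values, adjusted p under 0.05). In spermatocytes 15 of 20 were lower and 0 higher, against 25.6% lower and 9.31% higher of 15903 genes. The median log2 difference over the tested members was −1.77 in P18 testis and −2.23 in spermatocytes, and over all genes 0.04 and −0.05. A gene was tested only at a level of at least 1 in at least 3 libraries, so the near-zero members are outside these counts, and Spata16 in both sets and Acr in spermatocytes entered through their Het libraries alone. In such bulk RNA, fewer cells of a type and less RNA per cell cannot be told apart.

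**Figure D2:**
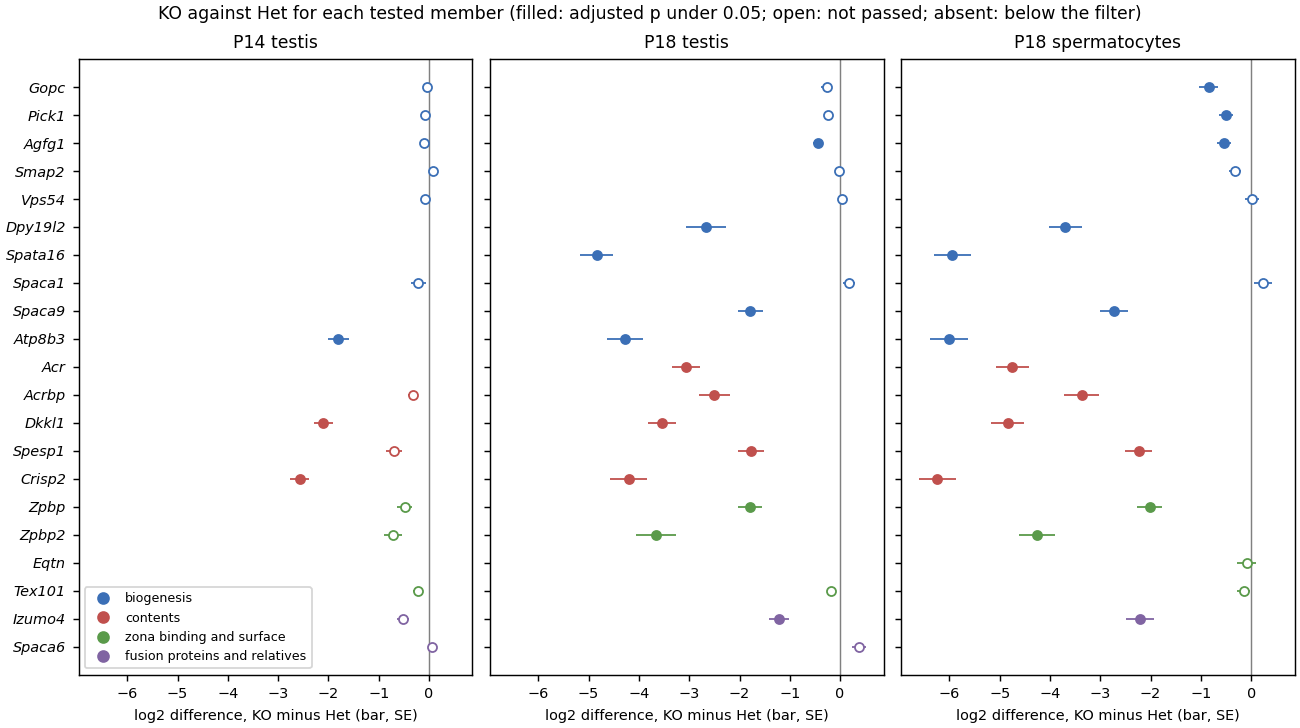
KO minus Het log2 difference (log2 of the level plus 0.5, bars SE, n = 3 and 3) of each tested member in P14 testis, P18 testis and P18 spermatocytes, coloured by role. Filled points passed an adjusted p of 0.05; all 5 contents genes are filled in both P18 panels, while Smap2, Vps54, Spaca1 and Tex101 are unfilled in all 3.

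Among 10 biogenesis genes tested, 5 were lower in KO in P18 testis and 7 in spermatocytes, by very different amounts. Spata16 codes for a Golgi-associated spermatid protein whose loss in humans gives sperm without an acrosome. In P18 testis it stood at 45.4, 32.4 and 17.1 in Het and at 0.615, 0.547 and 0.464 in KO. In spermatocytes its Het libraries held 39.3, 34.1 and 82.8 and its KO libraries 0.0739, 0.285 and 0.597. KO lay far below Het in every library, 28.7-fold lower in P18 testis (log2 −4.84 ± 0.34, adjusted p = 0.00351) and 61.5-fold lower in spermatocytes (−5.94 ± 0.37, adjusted p = 0.00011) on the log2(level + 0.5) scale, which understates falls to low levels. Spata16 passed the filter through its Het libraries alone in both sets.

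Atp8b3, a phospholipid-flipping ATPase of the acrosomal region, was the most abundant biogenesis gene in Het spermatocytes. Its levels in P18 testis were 132, 77.8 and 45.7 in Het and 3.77, 3.65 and 3.27 in KO. In spermatocytes they were 142, 114 and 293 in Het and 1.39, 2.12 and 3.21 in KO. The groups were far apart in both sets, with log2 differences of −4.27 ± 0.36 (adjusted p = 0.00351) and −6.00 ± 0.38 (adjusted p = 0.000112).

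Dpy19l2, the inner nuclear membrane protein that holds the acrosome to the nucleus, was at 24.2, 13.4 and 7.5 in Het and 1.55, 2.08 and 1.51 in KO testis at P18. Spermatocyte libraries held 24.5, 20.9 and 52.9 in Het and 1.68, 1.65 and 2.31 in KO. Every KO library was under every Het library (−2.67 ± 0.39, adjusted p = 0.00751, and −3.70 ± 0.33, adjusted p = 0.000295). Spaca9, an acrosome-associated protein gene, read 7.29, 4.65 and 3.57 in Het and 0.966, 1.00 and 1.31 in KO testis, and 6.22, 6.31 and 12.1 in Het and 1.05, 0.575 and 0.71 in KO spermatocytes. It also fell in both sets without overlap (−1.78 ± 0.25, adjusted p = 0.00664, and −2.72 ± 0.28, adjusted p = 0.000492).

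Agfg1, Gopc and Pick1 act in vesicle transport and are expressed in other cells too. Agfg1, needed for proacrosomal vesicles to join, was at 19.0, 16.2 and 14.4 in Het and 12.4, 11.6 and 11.9 in KO testis, and at 23.7, 20.1 and 29.0 in Het and 16.3, 16.8 and 16.1 in KO spermatocytes. Its falls of −0.45 ± 0.10 (adjusted p = 0.0282) and −0.54 ± 0.14 (adjusted p = 0.0212) kept their direction when any 1 library was left out, but the testis call ended without Het replicate 2 or any 1 KO library (adjusted p = 0.0683 to 0.0969) and the spermatocyte call without Het replicate 1 or any 1 KO library (0.0558 to 0.0629). Both also ended without a filter (0.0599 and 0.0589). Gopc, a Golgi PDZ protein gene, was lower in spermatocytes, with 8.44, 5.74 and 9.49 in Het and 4.09, 3.94 and 4.19 in KO (−0.85 ± 0.18, adjusted p = 0.0111), a call that ended without Het replicate 1 (0.0503). Pick1, the partner of GOPC on those vesicles, was lower there too (−0.50 ± 0.14, adjusted p = 0.0263), a call that ended without Het replicate 1 or 3 or KO replicate 2 or 3 (0.0501 to 0.0894), without a filter (0.07) and with values as deposited (−0.27, adjusted p = 0.0854). In P18 testis neither passed (Gopc −0.27, adjusted p = 0.115, and Pick1 −0.24, adjusted p = 0.069), though the KO libraries of both lay below all Het libraries, and both passed with voom on reads recovered from the values (0.0473 and 0.0394) and without Het replicate 3 (0.0449 and 0.0344). Of the exon bases of Pick1, 18.59% also belong to another annotated gene.

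Smap2, an Arf GTPase-activating protein of the trans-Golgi, and Vps54, a subunit of the GARP tethering complex, did not pass in either genotype comparison at P18. Smap2 was at 20.4, 19.8 and 17.2 in Het and 18, 19.7 and 18.4 in KO testis, and at 30.5, 25.1 and 33.2 in Het and 24.7, 22.6 and 23.3 in KO spermatocytes. Vps54 levels were 11.2, 11.7 and 12.3 in Het and 12.5, 11.9 and 11.8 in KO testis, and 17.7, 14.6 and 14.7 in Het and 18.4, 13.5 and 15.7 in KO spermatocytes. Only Smap2 in spermatocytes separated the genotypes by library, with a log2 difference of −0.32 ± 0.12 (adjusted p = 0.0847). Spaca1, an inner acrosomal membrane protein gene, stayed low, at 1.53 to 3.50 in all 18 libraries, and passed in no KO comparison.

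All 5 contents genes that could be tested fell in both P18 sets. Crisp2, a cysteine-rich protein of the acrosome and tail, was at 118, 69.0 and 40.8 in Het and 3.79, 3.36 and 2.78 in KO testis. In spermatocytes it was at 107, 92.4 and 211 in Het and 0.609, 1.34 and 1.91 in KO. Its fitted fall in spermatocytes was 75.5-fold on the log2(level + 0.5) scale (−6.24 ± 0.38, adjusted p = 0.000108), where voom gave Spata16 the larger fall (−7.51 against −6.75), and it fell by 4.20 ± 0.36 on the log2 scale in P18 testis (adjusted p = 0.00351). Dkkl1, an acrosomal protein related to the Dickkopf family, read 137, 89.0 and 60.5 in Het and 6.92, 7.91 and 7.28 in KO testis, and 103, 87.4 and 215 in Het and 3.22, 3.93 and 4.50 in KO spermatocytes. Both sets showed wide gaps between genotypes (−3.53 ± 0.28, adjusted p = 0.00351, and −4.84 ± 0.32, adjusted p = 0.000119).

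Acr, the gene of the protease acrosin, was at 24.3, 18 and 10.6 in Het and 1.75, 1.44 and 1.49 in KO testis. Its spermatocyte libraries held 22.2, 18.6 and 46.9 in Het and 0.349, 0.603 and 0.635 in KO. The fall was 8.36-fold in testis (−3.06 ± 0.28, adjusted p = 0.00354) and 26.8-fold in spermatocytes (−4.75 ± 0.33, adjusted p = 0.000128). In spermatocytes Acr passed the filter through its Het libraries alone. Acrbp, whose product binds and stores proacrosin, was at 25.3, 15.5 and 10.4 in Het and 2.20, 2.84 and 2.26 in KO testis, and at 17.9, 14.8 and 40.8 in Het and 1.88, 1.55 and 1.66 in KO spermatocytes. It fell with Acr (−2.50 ± 0.30, adjusted p = 0.00503, and −3.37 ± 0.35, adjusted p = 0.000498), but 29.75% of its exon bases also belong to other annotated genes, 1 of them antisense, and with no strand setting given part of its value may be theirs.

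Spesp1, a protein of the equatorial segment, had the smallest fitted fall of the 5 contents genes in both sets, though differences among them were not tested. It read 26.7, 17.7 and 12.8 in Het and 5.01, 5.84 and 4.32 in KO testis, and 23.0, 18.6 and 39.5 in Het and 4.29, 5.79 and 5.17 in KO spermatocytes. The genotypes did not overlap, with falls of 3.40-fold and 4.72-fold (−1.76 ± 0.26, adjusted p = 0.00767, and −2.24 ± 0.27, adjusted p = 0.000945).

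The zona-binding and surface genes split. Zpbp2, an intra-acrosomal zona-binding protein gene, was at 50.2, 29.5 and 18 in Het and 2.75, 1.89 and 1.30 in KO testis, and at 31.4, 25.9 and 69.8 in Het and 1.86, 1.17 and 1.66 in KO spermatocytes. Its paralogue Zpbp stood at 15.5, 10.9 and 7.76 in Het and 2.79, 3.17 and 2.52 in KO testis, and at 16.5, 13.5 and 27.9 in Het and 4.32, 3.89 and 4.34 in KO spermatocytes. Zpbp2 fell by 3.66 ± 0.39 on the log2 scale in testis (adjusted p = 0.00407) and by 4.26 ± 0.35 in spermatocytes (adjusted p = 0.00023). Zpbp fell less, by 1.79 ± 0.24 (adjusted p = 0.00605) and 2.02 ± 0.25 (adjusted p = 0.00107), though the difference between the paralogues was not tested, and 5.25% of Zpbp exon bases are shared with the antisense gene Spata48.

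Tex101, a germ-cell surface protein needed for sperm to pass into the oviduct, was the most abundant member in every library and passed in no KO comparison. At P14 it read 123, 119 and 128 in Het and 93.5, 104 and 120 in KO. P18 testis held 245, 239 and 263 in Het and 228, 227 and 204 in KO, and spermatocytes held 405, 325 and 375 in Het and 385, 318 and 296 in KO. The libraries overlapped at P14 and in spermatocytes and not in P18 testis, and none of the differences passed (−0.22 ± 0.09, adjusted p = 0.534, at P14, −0.18 ± 0.07, adjusted p = 0.11, in P18 testis and −0.15 ± 0.13, adjusted p = 0.416, in spermatocytes). Eqtn, the acrosomal membrane protein equatorin, stayed at 0.351 to 1.11 in all libraries and passed nowhere (−0.09 ± 0.19 in spermatocytes, the only KO comparison with it).

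Of the fusion genes, only 2 reached the filter. Izumo4, an IZUMO1 relative, was at 17.8, 12.7 and 10.05 in Het and 5.57, 5.20 and 5.31 in KO testis, and at 15.3, 13.3 and 29.1 in Het and 3.43, 4.24 and 2.99 in KO spermatocytes. It fell without overlap, 2.33-fold in testis (−1.22 ± 0.19, adjusted p = 0.00941) and 4.63-fold in spermatocytes (−2.21 ± 0.29, adjusted p = 0.00133). Spaca6, required on sperm for fusion, is named here after its values were seen. It was at 3.09, 3.36 and 4.31 in Het and 5.12, 4.78 and 4.399 in KO testis, and at 0.122 to 0.516 in the 6 spermatocyte libraries. Its KO testis libraries lay above all Het libraries, a difference that did not pass (0.37 ± 0.13, adjusted p = 0.0869) but did with voom (0.42, adjusted p = 0.0306) and without Het replicate 3 (0.47, adjusted p = 0.0295), so that 1 member was then higher.

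**Figure D3:**
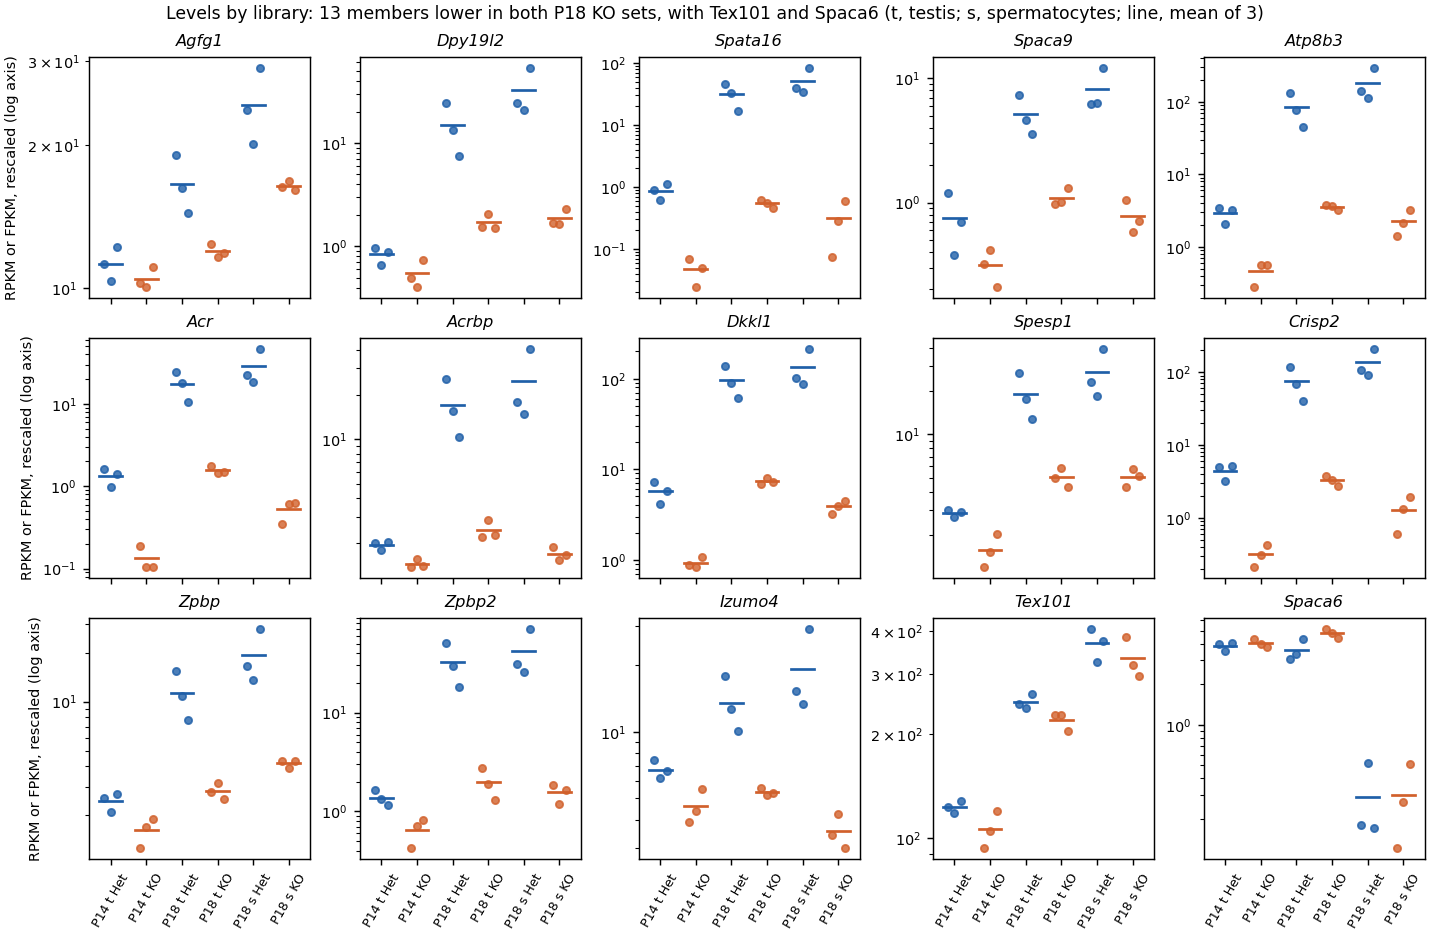
Level in each library (points; RPKM or FPKM after rescaling, log axes) of the 13 members lower in both P18 sets and of Tex101 and Spaca6, with the mean of 3 libraries as a line; Het is blue and KO orange. In both P18 sets of the first 13 panels every KO library lies below every Het library; P14 and P18 levels come from separately scaled tables, with gene lengths not shown to be the same for Atp8b3, Acr, Crisp2, Izumo4, Tex101 and Spaca6.

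The 13 members lower in both P18 sets, Agfg1, Dpy19l2, Spata16, Spaca9, Atp8b3, Acr, Acrbp, Dkkl1, Spesp1, Crisp2, Zpbp, Zpbp2 and Izumo4, moved together from one Het library to the next. In P18 testis all 13 were highest in Het replicate 1 and lowest in Het replicate 3, with median ratios to the group mean of 1.44, 0.930 and 0.608 in replicates 1, 2 and 3. In spermatocytes all 13 were highest in Het replicate 3 (median ratio 1.59), and 12 were lowest in Het replicate 2. The pattern was not particular to the 13. Of the other members tested in P18 testis, Gopc, Pick1 and Smap2 had these same highest and lowest Het libraries in both sets. Vps54, Spaca1, Tex101 and Spaca6 did not, and the share of all genes with this order was not counted. The sum over the 13 ran from 259 to 643 in Het and 45.67 to 50.52 in KO testis, and from 480 to 1150 in Het and 40.5 to 45.7 in KO spermatocytes.

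Markers of late pachytene cells moved with them, though all marker lists were chosen with earlier results of these data known. The summed level of 6 such markers (Piwil1, Ccna1, Pgk2, Ldhc, Hspa2 and Tbpl1) was 568 to 1208 in Het and 165 to 183 in KO testis at P18, and 1129 to 2366 in Het and 152 to 196 in KO spermatocytes, and all 6 were lower in KO in both. Het exceeded KO 4.96-fold in P18 testis and 9.48-fold in spermatocytes for those markers, and 2.30-fold and 2.70-fold for the summed level of all 39 members, to which Tex101 gives the most. For the 13, which were picked for being lower in these same comparisons, it was 8.95-fold and 16.9-fold. The ratio was 1.30-fold and 1.15-fold for 6 markers of meiotic prophase (Sycp1, Sycp3, Hormad1, Syce1, Meiob and Ddx4). Of the 6 prophase markers, 2 were lower in KO in P18 testis and 1 in spermatocytes. Spermatogonial markers were higher in KO for 2 of 5 tested in P18 testis and 4 of 6 in spermatocytes. In P18 testis 1 of 8 Sertoli, 1 of 5 Leydig and 2 of 5 macrophage and myoid markers were higher in KO, and in spermatocytes 0 of 7, 0 of 1 and 0 of 4, with the Leydig marker lower. Of 8 spermatid markers, 1 could be tested in P18 testis and 2 in spermatocytes, and all of these were lower in KO. The part of these cell types in the falls was not tested.

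**Figure D4:**
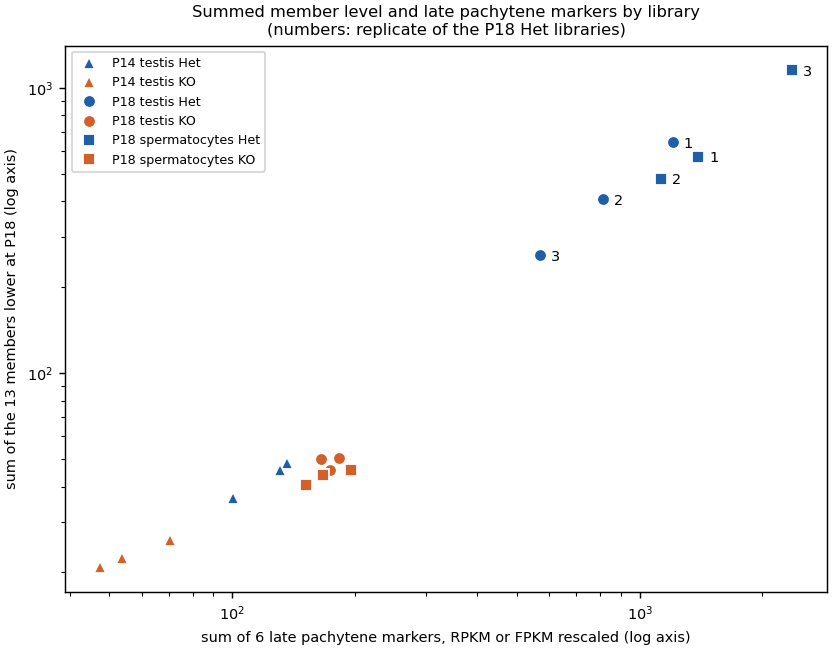
Summed level of the 13 members lower at P18 (vertical) against the summed level of 6 late pachytene markers (horizontal), RPKM or FPKM after rescaling on log axes, 1 point for each of 18 libraries. The P18 Het libraries, numbered by replicate, spread over 568 to 2366 on the horizontal axis, while the 6 P18 KO libraries sit between 152 and 196.

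Before P18 the differences were fewer. Of 16 members tested at P14, 3 were lower in KO and 0 higher, where 0.153% of 17704 genes were lower and 0.0113% higher. They were Crisp2 at 4.97, 3.19 and 5.12 in Het and 0.209, 0.313 and 0.430 in KO, Dkkl1 at 7.26, 4.12 and 5.76 in Het and 0.878, 0.824 and 1.06 in KO, and Atp8b3 at 3.45, 2.05 and 3.20 in Het and 0.281, 0.565 and 0.558 in KO. Crisp2 and Atp8b3 passed the filter through their 3 Het libraries alone, where they are high, as did Zpbp2, which was not called. For each of the 3 called genes every KO library lay below every Het library (−2.58 ± 0.20, adjusted p = 0.0254, −2.10 ± 0.19, adjusted p = 0.0254, and −1.80 ± 0.21, adjusted p = 0.041). The median over the 16 was −0.27, and over all genes 0.00. The sizes held when 1 library was left out (Crisp2 −2.67 to −2.47, Dkkl1 −2.30 to −1.91, Atp8b3 −1.88 to −1.64), while the count depended on the adjusted p. It was 0 without KO replicate 1 or KO replicate 2 and without a filter. With a filter at 5 the count was also 0, because none of the 3 called genes could then be tested. Without Het replicate 1, 2 or 3, when Crisp2 and Atp8b3 could not be tested, it was 0, 1 and 0. With voom it was 5, since Spesp1 (−0.88) and Izumo4 (−0.57) also passed.

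All 3 KO libraries lay under all 3 Het libraries for 10 of the 35 members with a read at P14, where this held for 7.84% of all genes with a read, and these 10 were among the 13 members lower in both P18 sets. It held for 20 of 37 members in testis at P18 (16.6% of genes) and for 19 of 38 in spermatocytes (17.7%). KO lay above Het for 2, 1 and 3 members, beside 4.65%, 13.7% and 11.8% of genes. Acr had 118 reads over the 3 P14 Het libraries and 12 over the KO libraries, and Spata16 had 104 and 6. Both were below the filter at P14, and without it neither passed (−1.52 ± 0.16, adjusted p = 0.0638, and −1.31 ± 0.16, adjusted p = 0.0813). Late pachytene markers summed to 100 to 136 in Het and 47.4 to 70.3 in KO at P14, and their part in these differences was not tested.

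Between P14 and P18, 10 of the 12 members that could be tested rose in Het testis. The change with age could be tested for 12 members, those past the filter among the 30 whose annotated length gave whole reads at both ages, so Acr, Atp8b3, Crisp2, Izumo4 and Tex101 are not among them. In Het 10 were higher at P18 and 0 lower, where 28.8% of 14872 genes were higher and 31.9% lower, with a median log2 difference of 2.10. Spata16 led (4.23 ± 0.28, adjusted p = 3.23e-07), followed by Zpbp2 (3.79 ± 0.33, adjusted p = 3.06e-06) and Dkkl1 (3.64 ± 0.26, adjusted p = 5.73e-07). Spata16 entered this fit through its Het libraries alone, with every KO library of both ages under 1. In KO 6 of 12 were higher and 0 lower (17.9% and 24.4% of all genes), with a median of 0.66. On the log2(level + 0.5) scale Dkkl1 rose by 2.23 ± 0.26 (adjusted p = 4.29e-05) and Spesp1 by 1.18 ± 0.23 (adjusted p = 0.00223), while voom gave Spata16 the larger value (2.99 against 2.70 for Dkkl1), and Spaca1 rose in KO (0.50 ± 0.13, adjusted p = 0.0119) but did not pass in Het (adjusted p = 0.429). The difference between these 2 changes of Spaca1 did not pass with limma or with voom (voom 0.46, adjusted p = 0.345). The calls of Dpy19l2, Spata16 and Spaca9 in KO lay close to the threshold (adjusted p = 0.0494, 0.0359 and 0.0344), and the count in KO was 3 under a pseudocount of 1, without a filter, in 1 fit over all 18 libraries and without P14 KO replicate 1 or 3 or P18 KO replicate 1 or 2, and 11 with values as deposited.

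The KO effect itself was more negative at P18 than at P14 for 6 of 12 members, where 6.83% of all genes were called that way: Spata16 (−3.40 ± 0.40, adjusted p = 0.0022), Zpbp2 (−2.91 ± 0.46, adjusted p = 0.00669), Dpy19l2 (−2.29 ± 0.46, adjusted p = 0.0165), Acrbp (−2.16 ± 0.34, adjusted p = 0.00616), Dkkl1 (−1.41 ± 0.37, adjusted p = 0.0459) and Zpbp (−1.30 ± 0.30, adjusted p = 0.0292). Spata16 entered this fit through its Het libraries alone. Its P14 libraries held 104 reads in Het and 6 in KO, so the 0.5 added to each level compresses its P14 KO effect. With voom 0 of the 12 passed. Its values were about as large for Zpbp2 (−2.85 ± 1.25), Dpy19l2 (−2.32 ± 1.14), Acrbp (−2.29 ± 0.65) and Zpbp (−1.33 ± 0.44) and smaller for Spata16 (−1.80 ± 2.18) and Dkkl1 (−1.03 ± 0.95), all 6 with larger errors, and adjusted p ran from 0.0923 (Acrbp) to 0.701 (Spata16). Without P18 Het replicate 2 the count was 3.

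**Figure D5:**
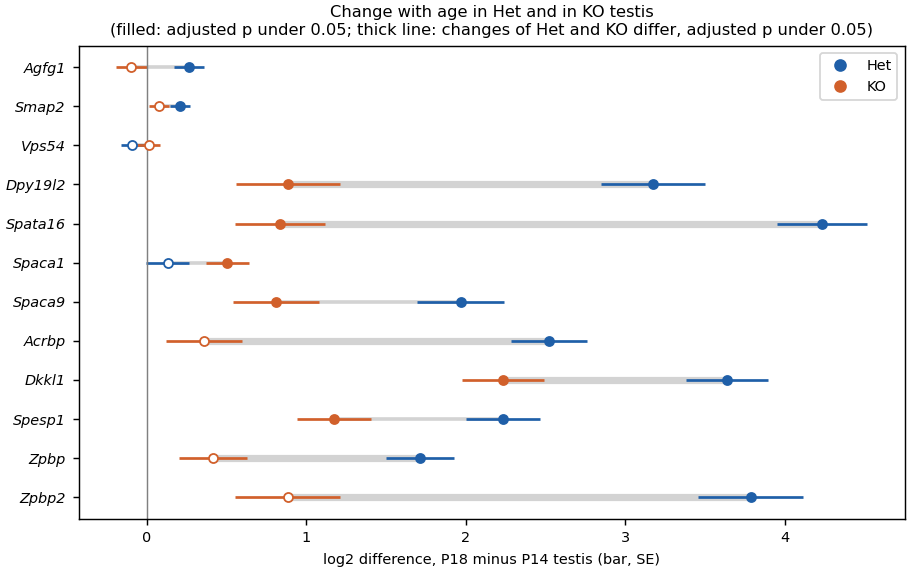
Change from P14 to P18 testis of the 12 members testable at both ages (log2 of the level plus 0.5, bars SE, 3 libraries per group), Het in blue and KO in orange, filled where adjusted p was under 0.05. Thick grey lines join the 6 genes whose Het and KO changes differed at an adjusted p under 0.05, from Spata16 (4.23 in Het, 0.84 in KO) to Zpbp (1.71 in Het, 0.42 in KO). The KO means of Spata16, 0.0473 at P14 and 0.542 at P18, lie below or close to the 0.5 added. Its KO change is therefore compressed on this scale (2.99 ± 2.06 with voom).

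At P18, Het spermatocytes held more of some members than Het testis. Of 21 tested, 9 were higher in spermatocytes (27% of 19930 genes were) and 2 lower (31.7%). The 9 were Gopc, Pick1, Agfg1, Smap2, Vps54, Dpy19l2, Atp8b3, Zpbp and Tex101, between 0.48 (Vps54) and 1.22 (Dpy19l2) on the log2 scale. Spaca6 was lower by far (−2.30 ± 0.23, adjusted p = 9.95e-06) and Spaca1 slightly (−0.45 ± 0.14, adjusted p = 0.0168). None of the 5 contents genes passed, with differences of 0.55 to 0.97, and without P18 testis Het replicate 1, where these genes were highest, 15 members were higher. The KO effect did not pass as different between spermatocytes and testis for any of the 21 with limma and no block (1.22% of all genes were called more negative in spermatocytes and 0.0602% less negative) or with voom, though 8 had an unadjusted p under 0.05, all more negative in spermatocytes. With the replicate number as a block Crisp2 passed (−2.08, adjusted p = 0.041). Without it Crisp2 (−2.08 ± 0.57, adjusted p = 0.107), Atp8b3 (−1.77 ± 0.57, adjusted p = 0.166) and Acr (−1.74 ± 0.48, adjusted p = 0.103) had the largest differences.

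The 17 members near zero at P18 were mostly contents and fusion genes, 8 of the contents genes (Acrv1, Spaca3, Spaca7, Zp3r, Spam1, Hyal5, Lyzl1 and Lyzl4), 6 of fusion (Izumo1, Izumo2, Izumo3, Tmem95, Dcst1 and Dcst2), Spaca4 and Tmem190 of the surface, and Fam71f1 of biogenesis. Spam1 and Hyal5, the sperm hyaluronidases, had 3 reads and 1 read in all 18 libraries together, and Lyzl1, a lysozyme-like protein, had 1. Izumo1, which docks on the egg receptor JUNO, stayed between 0.273 and 1.02 in all libraries with overlapping genotypes in each set, and 21.86% of its exon bases also belong to Rasip1. These genes were below the filter, so no KO difference was called for them.

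Izumo3, another IZUMO1 relative, was the near-zero member that separated the genotypes most cleanly. It had 6, 6 and 9 reads in Het spermatocytes, 2, 5 and 4 in Het P18 testis, and 0 in all 6 KO libraries at P18 and in all 6 P14 libraries. With 3 reads over the KO group set in place of 0, Het was 6.00-fold higher in spermatocytes and 3.36-fold in P18 testis. These values take the Het reads as exact and are not lower bounds, since Het counting error and the spread between libraries are left out. Tested with limma without a filter, Izumo3 was lower in KO spermatocytes (−0.91 ± 0.14, adjusted p = 0.00897, with 9.61% of 38687 genes lower) and not past the threshold in testis (−0.46 ± 0.11, adjusted p = 0.0532). It entered these fits through its Het libraries alone, and its KO values, all from 0 reads, had no spread. Izumo3 was also singled out for this separation, so these p-values are no independent evidence of it.

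Zp3r, a zona-binding acrosomal matrix protein, had 18, 17 and 3 reads in Het P18 testis and 1, 3 and 0 in KO, and 7, 3 and 3 in Het spermatocytes against 0, 1 and 0. Fam71f1, a Golgi protein of acrosome formation, had 16, 7 and 9 reads in Het P18 testis and 1, 3 and 2 in KO. Lyzl6, another lysozyme-like protein, had 21, 11 and 16 against 5, 1 and 6. The level of all 3 was lower in every KO library of P18 testis than in any Het library there. For Zp3r this rested on depth and scaling, since Het replicate 3 and KO replicate 2 had 3 reads each (levels 0.0876 and 0.0816). Without a filter none of the 3 passed in P18 testis with limma (adjusted p = 0.17, 0.0874 and 0.0847).

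Dcst1 and Dcst2, membrane proteins required together for fusion, pointed the other way in spermatocytes. Dcst2 was at 0.262, 0.422 and 0.505 in Het and 0.786, 0.940 and 0.958 in KO, from 8 to 33 reads a library. Dcst1 was at 0.243, 0.184 and 0.257 in Het and 0.462, 0.377 and 0.405 in KO. KO lay above Het for both, as it did for Tmem190 (3 reads in Het and 14 in KO), but without a filter Dcst2 did not pass (0.64 ± 0.18, adjusted p = 0.0706), and in P18 testis their genotypes overlapped. The loci of Dcst1 and Dcst2 overlap on opposite strands, but no exon bases of Dcst2 belong to another annotated gene. Of the Dcst1 exon bases, 24.19% also belong to the antisense gene Gm10702. With no strand setting given, Dcst1 may share reads with Gm10702.

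Other genes of acrosome formation, protease control, exocytosis and fusion were also often lower at P18. They were chosen with earlier results of these data known, so their shares beside those of all genes are no independent check. A list of 36 such companion genes held 15 testable at P14, of which 0 passed with limma (at an unadjusted p under 0.05, 4 were lower, led by Spink2 at −1.57, and 1 was higher). In P18 testis 10 of 19 were lower and 0 higher, with a median of −0.51, where 17% and 6.52% of all genes were lower and higher. In spermatocytes 12 of 18 were lower and 1 higher, with a median of −0.83, beside 25.6% and 9.31% of all genes. Spink2, the acrosin inhibitor, fell from 64.7 ± 30.4 to 4.77 ± 1.17 in testis and from 96.5 ± 52.5 to 1.58 ± 0.489 in spermatocytes (−3.55 and −5.44). Actl9, an actin-like protein of the perinuclear theca, was lower in KO testis (−3.30), and Arsa, the sulfatase arylsulfatase A, in KO spermatocytes (−4.66). Pcsk4, a proprotein convertase of sperm, was lower in both (−1.74 and −2.52). Mfge8, a secreted glycoprotein that binds the zona and that other testis cells also make, was the companion that rose, from 15.7 ± 2.15 to 22.8 ± 1.34 in spermatocytes (0.53 ± 0.12, adjusted p = 0.0144).

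RefSeq promoters were used for 34 of the 39 members, 39 promoters in all. Smap2, Acr, Eqtn and Izumo4 had none listed, and Lyzl1, a near-zero member on chromosome 18, was left out. CACGTG was present in 2 of 11 promoters of members lower in both P18 sets (Spata16, with 2 copies, and Dpy19l2), 18.2%, and in 6.02% of all 32851 promoters. GTTGCC was in 4 of the 11 (Spaca9, Acrbp, Dkkl1 and Spesp1), 36.4%, in 3 of 9 promoters of the other members (2 overlapping windows of Pick1, and Spaca6), in 0 of 19 of the near-zero members, and in 10.4% of all promoters. CAACGG was in 1 of the 11, 2 of the 9 and 0 of the 19 (4.05% of all), and the shorter AACNG, which CAACGG contains, was in 72.7% of the 11 and 74.2% of all. The cyclic AMP response element TGACGTCA was found in 1 promoter, that of the near-zero gene Izumo1. Median CpG counts per 250 bases were 11 in the members lower at P18, 13 in the other members, 4 in the near-zero members and 6 in all promoters. These matches describe letters in a window and are no evidence of binding.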

How the data were processed

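RNA of 18 libraries was analysed, 3 for each of 6 groups. The authors deposited 1 table per library, with FPKM values for the testes at P18 and RPKM values for the other sets. Per the labels, poly(A) RNA from Trizol extracts was made into libraries with a NEBNext Ultra II kit, and the strand setting is not given in the sources used here. Per the submitters' processing notes, which give no roles, CASAVA 1.9, STAR 2.6.1a, featureCounts and edgeR 3.28.1 were used with GRCm38. The lists of members, companion genes and markers were chosen with earlier results of these data known.

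Low values were whole multiples of the value of 1 read for 93.71% to 99.25% of values up to 20 reads (tolerance 0.02 reads), which gave each library's depth and the reads behind each gene. Values were rescaled by TMM factors computed on those reads (trims of 30% and 5%), genes reaching 1 in 3 or more libraries of the fit were kept, and log2(value + 0.5) was tested with limma 3.58.1 in R 4.3.3 (trend and robust settings, Benjamini-Hochberg adjustment over all genes tested, threshold 0.05). There were 8 comparisons, genotype in each set (6 libraries a fit) and age, fraction and their interactions with genotype (12 libraries a fit). Fits across ages used the 43748 genes whose annotated length gave whole reads at both ages, 30 members among them. P14 and P18 tables were scaled separately by the authors. The code was tested on simulated data with 200 changed genes a comparison, where unchanged genes made up 8.38% of 179 calls for the P14 genotype fit (17171 genes), 11.2% of 169 for P18 testis (18388 genes), 7.34% of 177 for spermatocytes (15499 genes) and 4% to 8.93% for the other comparisons, so the adjusted p was somewhat lenient in these simulations and calls near 0.05 are less firm than the threshold states. The simulated reads had the same dispersion in every gene and group, which the real libraries were not shown to have. The shares of unchanged genes among calls need not hold for the real libraries. Alternatives were the pseudocount, the filter, the scaling, voom on the recovered reads, a replicate block, a fit over 18 libraries and leaving out each library. Members named with each library's value were those that passed a KO comparison or interaction and had a group mean of at least 5, up to 6 per role, and those at that level that did not pass; others are given by range or were named after their values were seen. Motifs were chosen after the promoters had been looked at. Python 3.11.15, numpy 2.4.6, pandas 2.3.3 and matplotlib 3.10.9 were also used.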

Additional observations from a re-analysis of the deposited data

Results flagged for a closer look

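For 6 members the KO effect differed between P14 and P18 testis by the test of that difference (limma, 12 libraries, adjusted p under 0.05), with the P18 effect the more negative. The differences in log2 effect were −3.40 for Spata16, −2.91 for Zpbp2, −2.29 for Dpy19l2, −2.16 for Acrbp, −1.41 for Dkkl1 and −1.30 for Zpbp. None of them passed with voom on recovered reads, where errors were larger and the differences were −1.80, −2.85, −2.32, −2.29, −1.03 and −1.33 in the same order (adjusted p = 0.0923 for Acrbp, the smallest, to 0.701 for Spata16). Spata16 entered the fit of 12 libraries through its Het libraries alone. No group had the 4 samples needed to look for single outlying samples.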

How the results depend on the processing

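The counts of members lower in KO at P18 kept within 1.5 times of 13 in testis and 15 in spermatocytes under every alternative run, at 11 to 14 and 10 to 14 when single libraries were left out. At P14 the count of 3 became 0 without a filter, 5 with voom on recovered reads, and 0 to 3 when single libraries were left out. A filter at 5 also gave 0 there, because none of the 3 called genes could then be tested. The count of 6 members higher at P18 than P14 in KO became 3 with a pseudocount of 1, without a filter and in 1 fit over all 18 libraries, 11 with values as deposited, and 3 to 7 leaving out libraries. The count of 6 with a KO effect more negative at P18 than P14 became 0 with voom and 3 to 8 leaving out libraries. The count of 9 higher in Het spermatocytes than testis was 6 to 15 leaving out libraries, and that of the KO effect between spermatocytes and testis stayed at 0 there and became 1 with the replicate block. With voom 1 member, Spaca6, was higher in KO in P18 testis. Signs turned only for members that did not pass in the comparison named: Smap2 in P18 testis (0.0585 as deposited, −0.127 to 0.0167 leaving out libraries), Tex101 in spermatocytes (0.095 as deposited, 0.0218 in the 18-library fit), Eqtn in spermatocytes (0.0244 in the 18-library fit) and Vps54, at −9.8e-05 to 0.0479 in P18 testis and −0.0311 to 0.176 in spermatocytes leaving out libraries.

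Same-numbered Het and KO libraries were not treated as pairs in the main fits, and whether they share a batch was not tested. Their deviations from the group means correlated at r = 0.08, 0.08 and 0.10 for P14. For P18 testis r was 0.03, −0.01 and −0.03, and for spermatocytes 0.23, 0.05 and 0.09. At P14 and in spermatocytes each library correlated best with its own number. With the replicate block the counts were 2 at P14, 13 and 15 at P18, 10 and 5 for age in Het and KO, 4 for the age difference, 12 for the fraction and 1 (Crisp2, adjusted p = 0.041) for its difference. Depth limits the members under 1, since 1 read on a gene of 1 kb was worth up to 0.108.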
